A study of Mus musculus with 6 samples.

Results

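The genes described here encode the calcium/calmodulin-dependent protein kinases (CaM kinases) of mouse liver. They are the 4 genes for CaMKII subunits (Camk2a, Camk2b, Camk2d and Camk2g), the CaMKII inhibitor gene Camk2n1, the CaMKI genes Camk1 and Camk1d, the kinase gene Camkk2 and the CaMKIV gene Camk4. These 9 genes were taken by symbol out of 55536 entries of the deposited table, and each symbol matched 1 entry. They were chosen with the Sirt5-/- against Sirt5+/+ difference known, above all that of Camk2b, so their levels in that comparison are given as a description and without a test. In the authors' deposited table Camk2b ranked 1 by adjusted p and 1 by the size of its log2 fold change, which was -8.13.

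RNA came from 6 livers of male C57BL/6 mice, 3 Sirt5-/- (lacking Sirt5, which encodes a mitochondrial deacylase) and 3 Sirt5+/+. All 6 animals had been injected at 4 weeks of age with 50 µg of PB[CMV-myc-YAP5SA]DS, which carries a tagged active form of the co-activator YAP behind the CMV promoter, and 10 µg of the transposase plasmid Act-PBase. Livers were taken 20 days after this hydrodynamic injection, in which fluid pressure carries plasmid DNA into a part of the hepatocytes. The libraries are of whole liver tissue, and no animal without YAP5SA is among them. The labels number the livers 1 to 3 in each genotype, and errors and p-values describe the spread between these livers.

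CaM kinases read the calcium signal. Calcium-loaded calmodulin binds beside the catalytic domain and releases it from its own inhibitory segment. CaMKII subunits assemble into a ring, in which neighbouring subunits phosphorylate each other on a threonine and so stay active after calcium has fallen. The alpha and beta subunits are best known from brain and the delta and gamma subunits from many other tissues. In mouse hepatocytes CaMKII has been studied as a mediator of glucagon action on glucose output.

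The coding sequence around that threonine is shown for the 3 subunit genes with most reads, because the shares given below rest on reads being told apart between them. The sequences are from GENCODE M21 transcripts (GRCm38; transcripts Camk2b-204, Camk2d-228 and Camk2g-201, from chromosomes 11, 3 and 14), 60 bases each, 5′ to 3′ on the coding strand, with the codon of threonine 287 in capitals.
Camk2b: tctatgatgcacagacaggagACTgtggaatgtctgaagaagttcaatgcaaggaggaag
Camk2d: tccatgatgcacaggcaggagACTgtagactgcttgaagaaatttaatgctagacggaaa
Camk2g: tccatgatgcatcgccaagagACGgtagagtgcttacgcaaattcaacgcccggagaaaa
Over the first 310 codons, which hold the catalytic domain and this segment, Camk2b was identical to Camk2d at 78.9% of bases and to Camk2g at 80.1%. The longest run of identical bases there was 23 for Camk2b with Camk2d and 29 for Camk2b with Camk2g. Of all 31-base words in Camk2b transcripts 0.371% occur in any other gene, and the share was 0.132% for Camk2d, 0% for Camk2g and at most 2.87% among the 9 genes. That highest share was for Camk1, whose words are shared with Ogg1 on the other strand. The labels do not say whether reads were counted by strand.

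Promoter sequence is shown for Camk2b and Camk2d, which had the highest CaMKII level in Sirt5+/+ and in Sirt5-/- livers. Each run is the 250 bases before the RefSeq gene start (GRCm38.p6), 5′ to 3′ on the gene's strand, with GC boxes (GGGCGG on either strand) in capitals. Camk2b is at chr11:6065749-6065998, minus strand, and Camk2d at chr3:126596701-126596950, plus strand. Both RefSeq starts are also the outermost start of a protein-coding transcript in GENCODE M21. In each gene 1 non-coding processed transcript of that annotation (Camk2b-211 and Camk2d-212) starts farther out, so the windows lie inside the gene spans given for GENCODE M21.
Camk2b: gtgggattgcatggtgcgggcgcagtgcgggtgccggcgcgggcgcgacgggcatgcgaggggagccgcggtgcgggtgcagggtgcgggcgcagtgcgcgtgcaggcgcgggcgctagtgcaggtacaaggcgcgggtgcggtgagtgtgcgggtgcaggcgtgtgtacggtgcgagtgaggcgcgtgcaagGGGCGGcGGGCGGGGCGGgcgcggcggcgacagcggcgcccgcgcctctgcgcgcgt
Camk2d: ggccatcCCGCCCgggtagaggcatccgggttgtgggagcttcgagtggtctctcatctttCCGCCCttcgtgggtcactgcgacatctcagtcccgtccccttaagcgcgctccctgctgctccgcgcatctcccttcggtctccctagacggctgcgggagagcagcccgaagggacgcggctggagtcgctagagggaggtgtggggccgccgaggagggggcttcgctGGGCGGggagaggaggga
Both windows are rich in G and C, at 78.4% for Camk2b and 68.4% for Camk2d, against a median of 52.4% over 32851 promoters of the same length. Each holds 3 GC boxes, a pair of which overlap in Camk2b, and 32.7% of all promoters hold at least 1. Neither window holds TATAAA, the TATA box (12.4% of promoters on either strand), or GGAATG, the core of the motif bound by the YAP partners of the TEAD family (12.6% of promoters). CACGTG, an E-box, was also found in neither (6.02% of promoters). These are matches of letters in a short window only.

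Library totals ran from 20025180 to 24330797 expected counts in Sirt5-/- livers and from 19307808 to 23410091 in Sirt5+/+ livers. Sirt5 had 13.8, 44.7 and 18.0 counts in Sirt5-/- replicates 1 to 3, against 352, 441 and 95.7 in Sirt5+/+ replicates 1 to 3, a log2 difference of -4.13 ± 0.38 (SE; edgeR, adjusted p = 0.00146). Mitochondrially encoded genes took 17.5 to 40.8% of counts in Sirt5-/- livers and 6.58 to 46.4% in Sirt5+/+ livers, with the highest shares in Sirt5-/- replicate 1 and Sirt5+/+ replicate 3. Of 14799 genes tested (edgeR quasi-likelihood test, adjusted p under 0.05) 34.5% differed between genotypes, 17.4% higher and 17.1% lower in Sirt5-/-. That count of 5100 genes was 2677 without Sirt5-/- replicate 2, 2531 without Sirt5-/- replicate 3 and 7647 without Sirt5+/+ replicate 3.

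Camk2b (ENSMUSG00000057897, chromosome 11, 5969644 to 6066362, minus strand, GRCm38) was close to absent in livers without Sirt5. Of the 9 genes, Camk2b had the most counts in every liver with Sirt5. It had 27.6, 45.6 and 45.0 expected counts in Sirt5-/- replicates 1 to 3, against 6983, 10422 and 6333 in Sirt5+/+ replicates 1 to 3. The groups lay far apart in every library, although no Sirt5-/- library was at 0. A floor of 3 counts equals 0.0827 to 0.175 CPM (counts relative to library size, scaled by TMM factors) in Sirt5-/- livers, and Camk2b lay above it at 1.63, 1.27 and 1.242 CPM, against 331, 372 and 830 CPM in Sirt5+/+ livers. Means were 1.38 ± 0.218 CPM in Sirt5-/- and 511 ± 277 CPM in Sirt5+/+ (SD, n = 3 each). The fitted log2 difference, Sirt5-/- minus Sirt5+/+, was -8.54 ± 0.56 (SE), the second lowest of all genes tested. Sirt5+/+ replicate 3 had the fewest Camk2b counts of its group and the highest CPM, because its scaling factor was 0.396. The difference was -7.96 without that library and -7.67 with libraries scaled by their totals. On the TPM scale (deposited values that account for transcript length) Camk2b averaged 0.393 ± 0.235 in Sirt5-/- and 120 ± 22.5 in Sirt5+/+ (SD, n = 3 each), a 305-fold lower mean in Sirt5-/-.

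**Figure D1:**
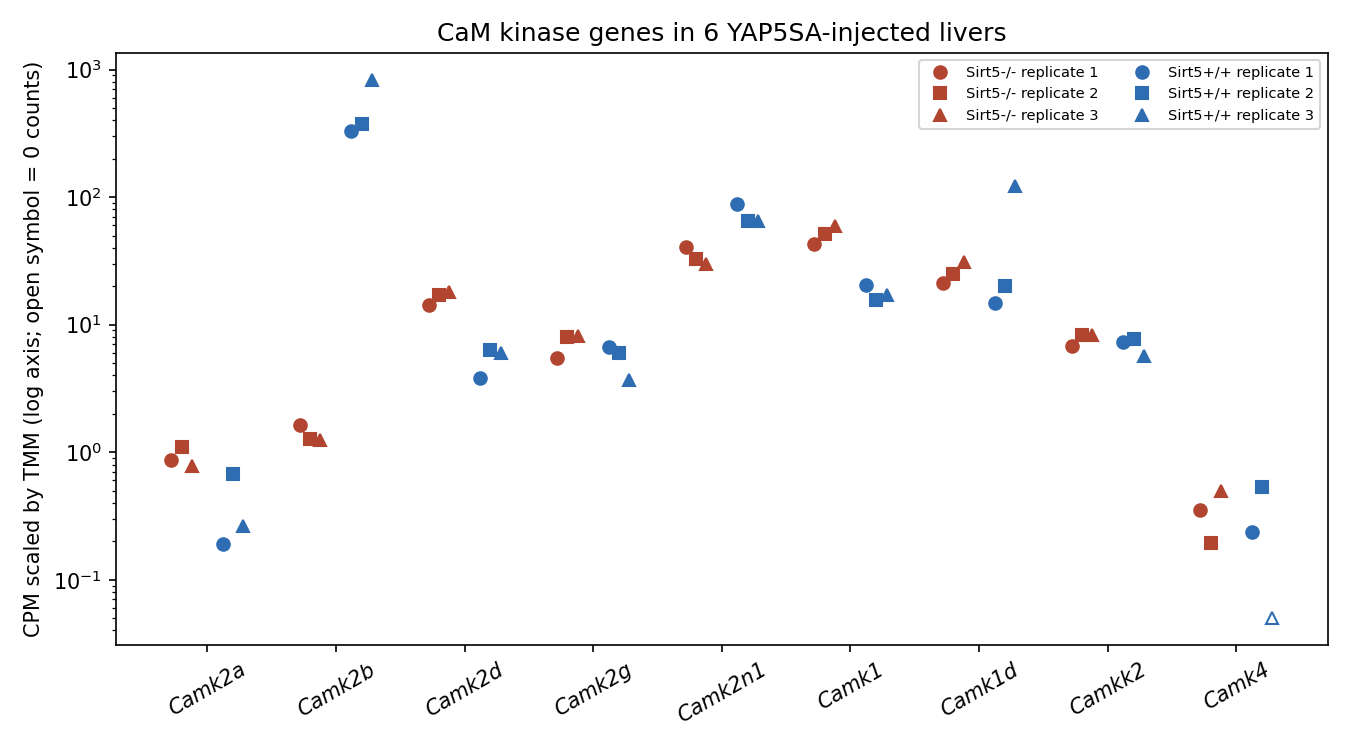
Levels of the 9 CaM kinase genes in each library, in CPM scaled by TMM factors on a log axis, with Sirt5-/- livers in red on the left and Sirt5+/+ livers in blue on the right of each gene; symbols mark replicates 1 to 3 and an open symbol stands for 0 counts. Camk2b lies at 1.242 to 1.63 CPM in Sirt5-/- livers and 331 to 830 CPM in Sirt5+/+ livers, while the other genes differ by far less.

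Camk2b thus made up nearly all CaMKII transcripts in Sirt5+/+ livers and a small part in Sirt5-/- livers. Its share of the summed TPM of the 4 subunit genes was 4.18, 2.99 and 4.68% in Sirt5-/- replicates 1 to 3, against 97.5, 95.7 and 99.1% in Sirt5+/+ replicates 1 to 3. The share of Camk2d, the delta subunit, averaged 69.0 ± 0.959% in Sirt5-/- and 1.03 ± 0.554% in Sirt5+/+ (SD, n = 3 each). The share of Camk2g, the gamma subunit, averaged 24.4 ± 1.58% in Sirt5-/- and 1.45 ± 1.10% in Sirt5+/+. Camk2a, the alpha subunit, averaged 2.60 ± 0.821% in Sirt5-/- and 0.0815 ± 0.0818% in Sirt5+/+. Within Sirt5-/- livers the shares of Camk2d and Camk2g varied little, at 68.3 to 70.1% and 22.6 to 25.7%. The small share of Camk2a ran from 1.65 to 3.08%. The summed level itself differed more in proportion. The sum was 4.55, 11.4 and 13.9 TPM in Sirt5-/- replicates 1 to 3, against 142, 132 and 96.0 TPM in Sirt5+/+ replicates 1 to 3. The lowest sum of each genotype was in its library with the highest mitochondrial share. Mitochondrial reads take part of the fixed total to which TPM are scaled, but their part in these sums was not tested.

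**Figure D2:**
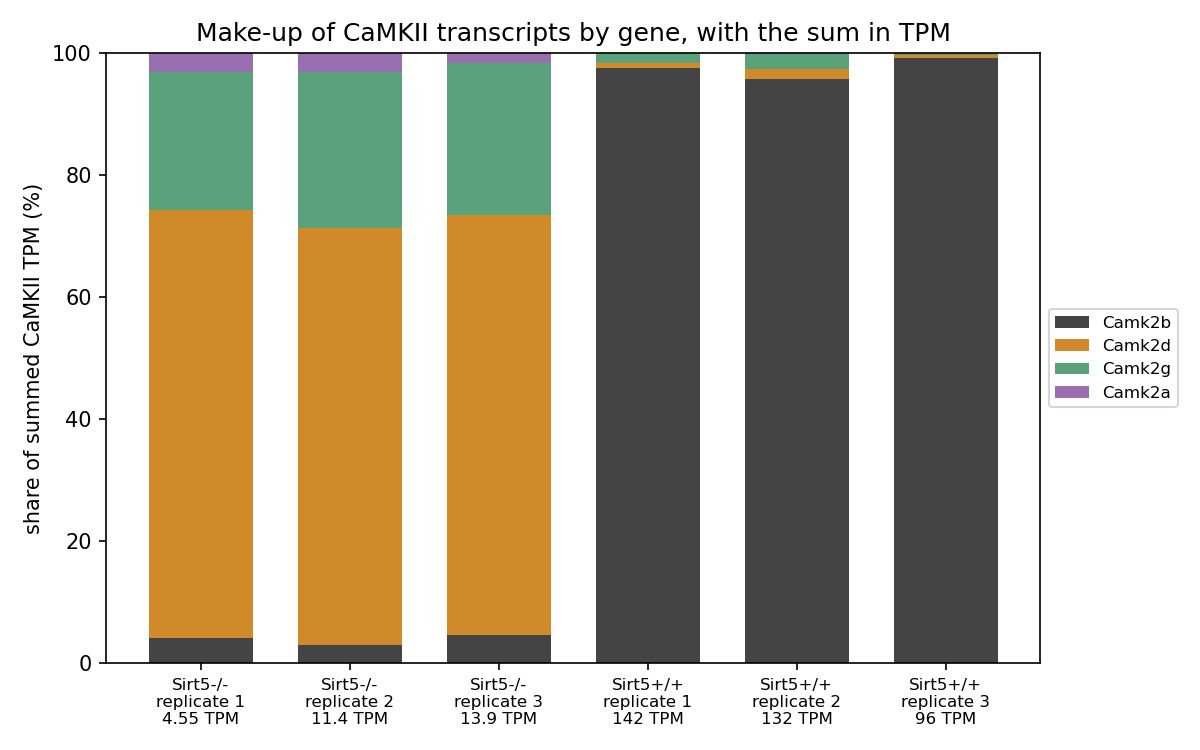
Share of each CaMKII subunit gene in the summed CaMKII TPM of each library, in percent, with Sirt5-/- livers on the left and the sum in TPM under each bar. Camk2b fills 2.99 to 4.68% of the bars of Sirt5-/- livers and 95.7 to 99.1% of those of Sirt5+/+ livers, and Camk2d fills 68.3 to 70.1% of the bars of Sirt5-/- livers.

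None of the other subunit genes had a lower mean in Sirt5-/- livers than in Sirt5+/+ livers, as Camk2b had. Camk2d (chromosome 3, 126596302 to 126846326, plus strand) had 244, 620 and 653 counts in Sirt5-/- replicates 1 to 3, against 80, 176 and 46 in Sirt5+/+ replicates 1 to 3. Its mean was 16.5 ± 1.98 CPM in Sirt5-/- and 5.37 ± 1.37 CPM in Sirt5+/+ (SD, n = 3 each), with no overlap between genotypes and a log2 difference of 1.62 ± 0.28 (SE), or 2.31 with libraries scaled by their totals. Camk2g (chromosome 14, 20734875 to 20794088, minus strand) had 5.48, 8.02 and 8.09 CPM in Sirt5-/- livers, against 6.69, 6.03 and 3.67 CPM in Sirt5+/+ livers. The genotypes overlapped for Camk2g, and its log2 difference was 0.38 ± 0.32 (SE), or 0.98 with library totals. Camk2a, on chromosome 18, was barely measured, with 15, 40 and 28 counts in Sirt5-/- livers and 4, 19 and 2 counts in Sirt5+/+ livers. The value in Sirt5+/+ replicate 3 is under the floor of 3 counts, and the log2 difference of 1.19 ± 0.61 (SE) was 2.04 without Sirt5+/+ replicate 2. Without Camk2b, the remaining 3 subunit genes summed to 4.36, 11.0 and 13.3 TPM in Sirt5-/- livers, against 3.50, 5.70 and 0.860 TPM in Sirt5+/+ livers, and these ranges overlap. Within that sum Camk2d took 71.9 ± 1.40% in Sirt5-/- and 45.5 ± 15.04% in Sirt5+/+ (SD, n = 3 each), of which Sirt5+/+ replicate 3 was the highest at 62.8%.

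Camk2n1, which encodes a small protein that binds and inhibits active CaMKII, was lower in Sirt5-/- livers by CPM (chromosome 4, 138454314 to 138460123, plus strand). It had 40.4, 32.6 and 29.8 CPM in Sirt5-/- replicates 1 to 3, against 87.8, 64.8 and 65.1 CPM in Sirt5+/+ replicates 1 to 3. These ranges do not overlap, and the log2 difference was -1.08 ± 0.25 (SE), or -0.51 with libraries scaled by their totals. In TPM the genotypes overlapped, at 12.3 to 18.2 in Sirt5-/- and 9.41 to 25.1 in Sirt5+/+. Set against the summed CaMKII TPM, Camk2n1 stood at 1.85 ± 0.746 TPM per CaMKII TPM in Sirt5-/- and 0.145 ± 0.0461 in Sirt5+/+ (SD, n = 3 each), and this ratio follows the level of Camk2b in its denominator.

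Of the kinases outside CaMKII, Camk1 was higher in Sirt5-/- livers and the others overlapped between genotypes. Camk1 encodes CaMKI alpha, a monomeric kinase that CaM kinase kinases switch on (chromosome 6, 113334124 to 113343984, minus strand). It had 43.2, 51.3 and 59.4 CPM in Sirt5-/- replicates 1 to 3, against 20.5, 15.6 and 17.2 CPM in Sirt5+/+ replicates 1 to 3, a log2 difference of 1.53 ± 0.24 (SE), or 2.22 with library totals. Ogg1, a DNA repair gene that overlaps Camk1 on the other strand, averaged 4.24 ± 0.566 CPM in Sirt5-/- and 3.22 ± 0.463 CPM in Sirt5+/+ (SD, n = 3 each; edgeR quasi-likelihood test, adjusted p = 0.345). Camkk2, which encodes a kinase that phosphorylates CaMKI, CaMKIV and AMPK, had 6.77, 8.35 and 8.34 CPM in Sirt5-/- livers, against 7.31, 7.68 and 5.63 CPM in Sirt5+/+ livers, with a log2 difference of 0.18 ± 0.25 (SE), or 0.79 with library totals. The genotypes overlapped and no test is given for Camkk2, so a difference is neither shown nor excluded with these 3 livers of each genotype.

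Camk1d, which encodes CaMKI delta, rested on a single library (chromosome 2, 5293457 to 5714515, minus strand). It had 21.3, 24.8 and 31.2 CPM in Sirt5-/- replicates 1 to 3, against 14.9, 20.2 and 123 CPM in Sirt5+/+ replicates 1 to 3. Its log2 difference was -1.02 ± 0.72 (SE) over all libraries but 0.61 ± 0.24 (SE) without Sirt5+/+ replicate 3, and 0.30 with libraries scaled by their totals. Camk4, on chromosome 18, which encodes the CaMKIV of T cells and neurons, did not pass the filter on low counts. It had 6, 7 and 18 counts in Sirt5-/- livers, against 5, 15 and 0 counts in Sirt5+/+ livers, so only its presence near the floor of 3 counts can be given.

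The filter thus kept 8 of the 9 genes, and 5 of these 8 had CPM that did not overlap between genotypes, where 49.8% of all tested genes had none. Of those 5, Camk2a, Camk2d and Camk1 were higher in every Sirt5-/- library, where 25.8% of all tested genes were. Camk2b and Camk2n1 were lower in every Sirt5-/- library, where 24.0% of all tested genes were. These counts describe genes that were chosen on this comparison. With deposited TPM the genotypes did not overlap for Camk2b, Camk2d and Camk1 and overlapped for the other 6 genes.

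The order of the 9 genes by TPM differed between genotypes mainly through Camk2b. In Sirt5-/- livers the medians ran from Camk1d at 52.7 TPM and Camk1 at 47.7 TPM, whose ranges overlap, through Camk2n1 at 17.5 TPM to Camk2d at 7.77 TPM, each apart from the gene before it. Below Camk2d came Camk2g at 2.92 and Camkk2 at 2.71 TPM, each overlapping the gene before it. Camk2b, at 0.340 TPM, followed apart from Camkk2 and overlapped Camk2a at 0.230 TPM, which in turn overlapped Camk4 at 0.140 TPM. In Sirt5+/+ livers Camk2b led at 126 TPM, and its range of 95.2 to 139 TPM overlapped that of Camk1d (median 25.6 TPM) only through Sirt5+/+ replicate 3, where Camk1d was listed at 205 TPM. Camk1d, Camk2n1 (median 21.02 TPM) and Camk1 (14.7 TPM) overlapped in this order. Camk1 stood apart from Camk2g, the next gene at 2.18 TPM, and Camk2g, Camkk2 (2.14 TPM), Camk2d (1.25 TPM), Camk4 (0.260 TPM) and Camk2a (0.0700 TPM) overlapped each with its neighbour.

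TPM and counts do not carry the same information for these genes, because a TPM divides by an effective length that was estimated in each library. The ratio of deposited count to TPM, set on a scale of bases with genes of a single annotated transcript, gives that length. For Camk2b it was 5328, 4532 and 2686 bases in Sirt5-/- replicates 1 to 3, against 2340, 3609 and 2387 bases in Sirt5+/+ replicates 1 to 3. The longest of the 15 Camk2b transcripts of GENCODE M21 has 4125 bases, so the first 2 of these values exceed every transcript in that annotation, and they rest on 27.6 and 45.6 counts. For Camk1d the implied length was 164 bases in Sirt5+/+ replicate 3, against 326 to 1243 bases in the other 5 libraries, while the longest annotated transcript has 6962 bases. Its 937 counts there thus became 205 TPM. For Camk4 it was 16.3 bases in Sirt5+/+ replicate 1, where 5 counts were listed as 14.3 TPM. Camk1, in contrast, stayed between 1111 and 1317 bases in all 6 libraries. Camk2n1 has 1 annotated transcript of 4444 bases, yet its implied length was 2066, 2283 and 2297 bases in Sirt5-/- replicates 1 to 3, against 4102, 3162 and 1894 bases in Sirt5+/+ replicates 1 to 3. The annotation behind the deposited TPM is not given in the sources used here and may differ from GENCODE M21, so lengths set against M21 transcripts are a description only. The part of transcript choice in these values was not tested.

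**Figure D3:**
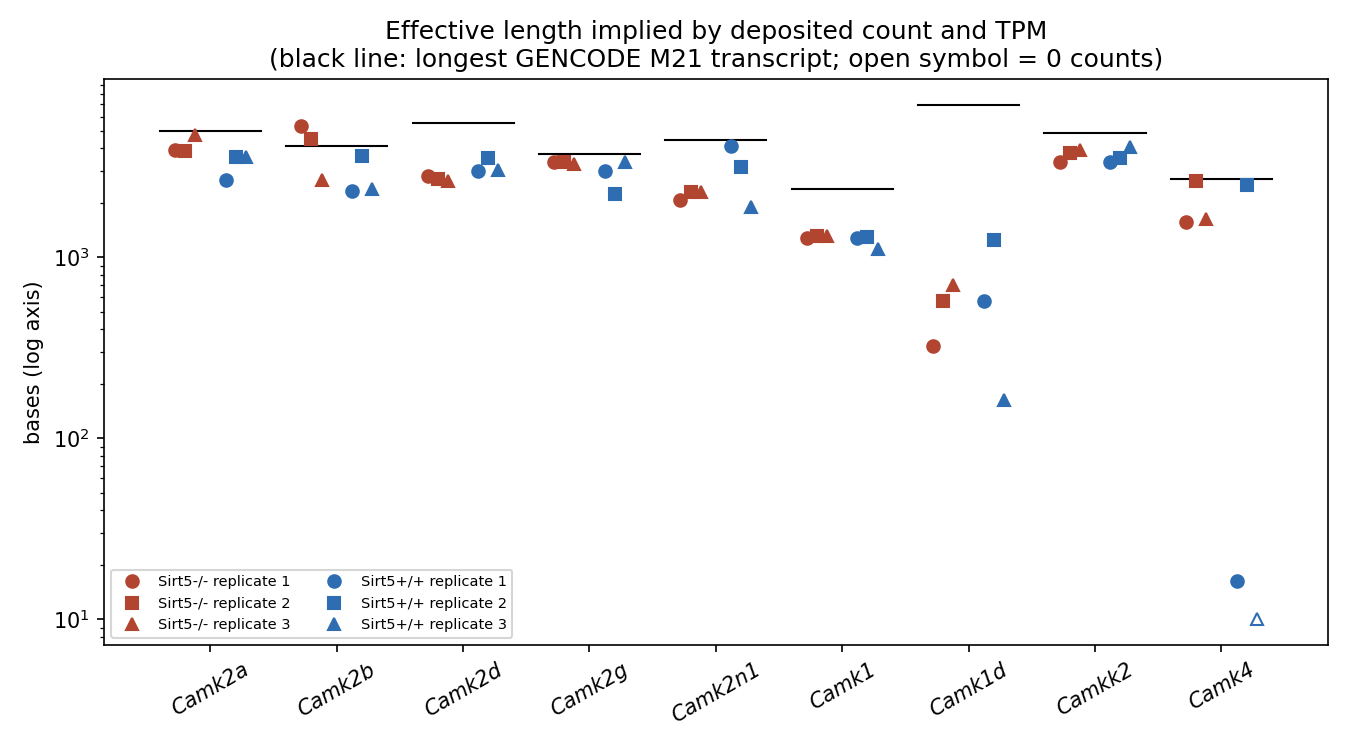
Effective length implied by deposited count and TPM for each gene and library, in bases on a log axis, with Sirt5-/- livers in red on the left and Sirt5+/+ livers in blue on the right; black lines give the longest GENCODE M21 transcript and the open symbol stands for 0 counts. Camk1d at 164 bases and Camk4 at 16.3 bases stand far below the other libraries.

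The genes Ykt6 and Nudcd3, on either side of Camk2b on chromosome 11, had smaller differences than Camk2b. Ykt6, a vesicle fusion gene that ends 1864 bases from Camk2b, averaged 14.0 ± 2.62 CPM in Sirt5-/- and 26.5 ± 13.7 CPM in Sirt5+/+ (SD, n = 3 each), a log2 difference of -0.93 ± 0.41 (SE; edgeR, adjusted p = 0.115). Without Sirt5+/+ replicate 3 the log2 difference of Ykt6 was -1.23 (edgeR, adjusted p = 0.00200). On the other side, 39329 bases away, Nudcd3 averaged 18.2 ± 0.994 CPM in Sirt5-/- and 22.8 ± 5.80 CPM in Sirt5+/+ (SD, n = 3 each; edgeR, adjusted p = 0.329).

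Hepatocyte markers moved in the same direction as Camk2b. Their 10 genes summed to 18969.6 to 37144.7 CPM in Sirt5-/- livers and 89279.5 to 121731 CPM in Sirt5+/+ livers, a 3.66-fold lower mean in Sirt5-/-. Of the 10, 8 passed the test as lower, where 17.1% of all tested genes did. Alb and Apoa1, the 2 markers of largest mean CPM, did not pass (edgeR, adjusted p = 0.0607 and 0.238). The sums were scaled by TMM factors of 0.396 in Sirt5+/+ replicate 3 and 1.49 and 1.68 in Sirt5-/- replicates 2 and 3. The distance between the genotypes depends on these factors, and sums with library totals were not made. Per 1000 CPM of these markers, Camk2b had 0.0440, 0.0488 and 0.0655 CPM in Sirt5-/- replicates 1 to 3, against 2.72, 4.14 and 9.29 CPM in Sirt5+/+ replicates 1 to 3. The mean of this ratio was 102-fold lower in Sirt5-/-. In bulk tissue, fewer cells of a type and less RNA per cell cannot be told apart.

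**Figure D4:**
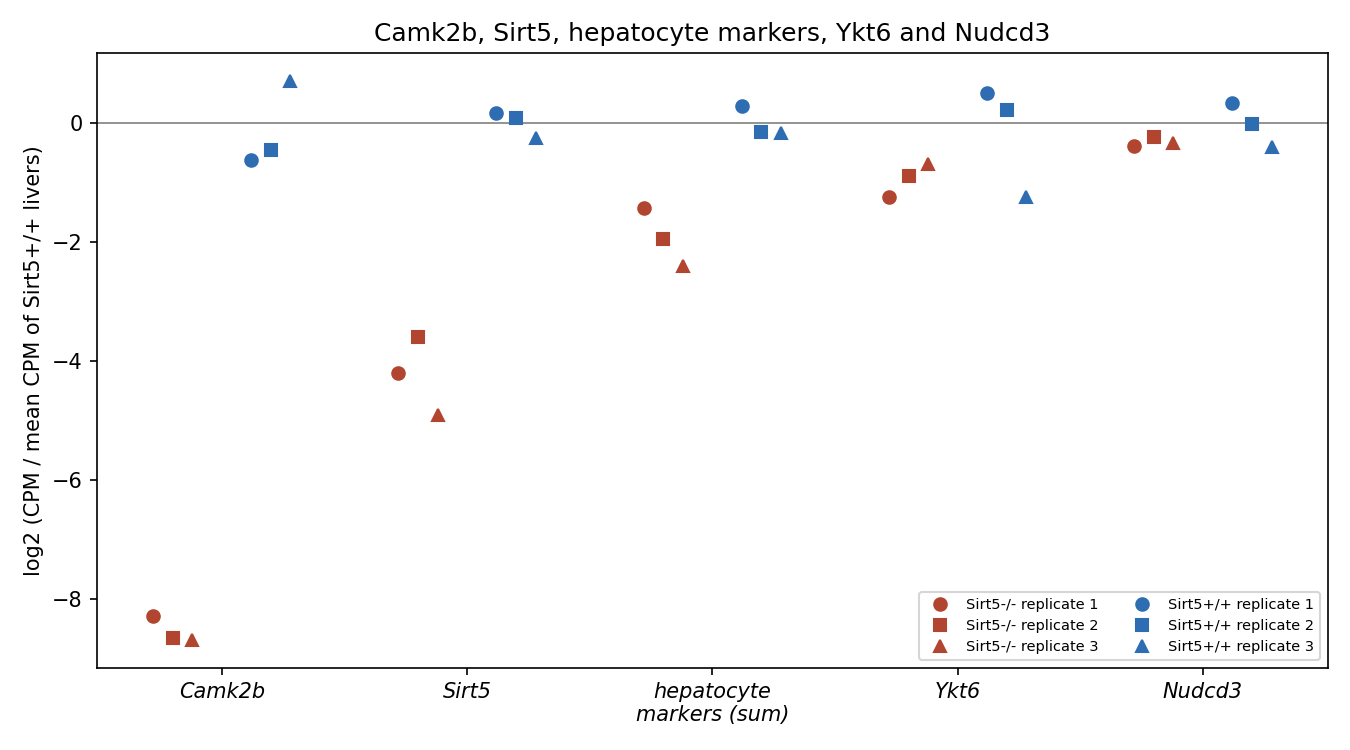
Level of Camk2b, Sirt5, summed hepatocyte markers, Ykt6 and Nudcd3, as log2 of CPM over the mean CPM of Sirt5+/+ livers, for each library, with Sirt5-/- livers in red on the left. Camk2b lies below -8 in all 3 Sirt5-/- livers, lower than Sirt5, the markers, Ykt6 and Nudcd3.

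Markers of other cells that use these kinases were also measured. Their calls stand beside 17.4% of all tested genes that passed as higher in Sirt5-/- and 17.1% that passed as lower. The 8 neuron and glia markers summed to 26.7 to 28.6 CPM in Sirt5-/- livers and 4.46 to 7.73 CPM in Sirt5+/+ livers, but this was nearly all Mbp, a myelin gene and the only 1 of 3 tested markers to pass (edgeR, adjusted p = 0.00146). Without Mbp they summed to 1.96 to 5.25 CPM in Sirt5-/- and 1.33 to 3.28 CPM in Sirt5+/+, which overlap, and Snap25 had 0 counts in all 6 libraries. Striated muscle markers summed to 1.63 to 3.18 CPM in Sirt5-/- livers and to 0.712, 132 and 2.88 CPM in Sirt5+/+ replicates 1 to 3. Camk2b was at 331, 372 and 830 CPM in these Sirt5+/+ replicates. The 8 macrophage markers summed to 1270.2 to 2515 CPM in Sirt5-/- and 332 to 440 CPM in Sirt5+/+ and did not move together. The general macrophage genes Lyz2, C1qa, Csf1r, Cd68 and Adgre1 passed as higher. Clec4f, which marks resident Kupffer cells, had 2.098 to 3.94 CPM in Sirt5-/- and 9.96 to 56.0 CPM in Sirt5+/+, and it passed as lower, as did Marco. Vsig4, also of resident macrophages, had 0.994 to 2.86 CPM in Sirt5-/- and 1.70 to 7.96 CPM in Sirt5+/+ and did not pass. Stellate cell and fibroblast markers summed to 2087 to 2306 CPM in Sirt5-/- and 419 to 681 CPM in Sirt5+/+ (4 of 8 higher, 1 lower), and cholangiocyte markers to 741 to 820 CPM in Sirt5-/- and 78.4 to 387 CPM in Sirt5+/+ (2 of 8 higher). T cell markers summed to 34.7 to 38.3 CPM in Sirt5-/- and 5.39 to 13.4 CPM in Sirt5+/+ (4 of 8 higher). Liver endothelial markers summed to 84.5 to 101 CPM in Sirt5-/- and 128 to 176 CPM in Sirt5+/+ (3 of 7 lower). Smooth muscle markers, at 63.0 to 110.0 CPM in Sirt5-/- and 19.9 to 106 CPM in Sirt5+/+, overlapped. Neutrophil markers lay at 8.40 to 12.5 CPM in Sirt5-/- and 2.89 to 5.11 CPM in Sirt5+/+ (overlapping without Csf3r). B cell markers lay at 24.1 to 27.7 CPM in Sirt5-/- and 6.64 to 23.1 CPM in Sirt5+/+. Platelet and erythroid markers lay at 182 to 235 CPM in Sirt5-/- and 286 to 380.1 CPM in Sirt5+/+ and did not move together. Of 6 tested, the platelet gene Pf4 passed as higher and the erythroid gene Alas2 as lower. The part of these cells in the levels of Camk2b, Camk2d, Camk1 and the other kinase genes was not tested.

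Among other genes with an established symbol, Nlrp12 had the profile nearest to that of Camk2b. Likeness was the root mean square difference of centred log2 CPM over the 6 libraries, which weighs the size of the difference as well as its shape. A gene without a difference between genotypes thus stands far from Camk2b by size alone. The median over the 13225 genes ranked was 4.21. Nlrp12, a regulator of inflammatory signalling in myeloid cells, stood at 1.34, with 0.0583, 0.413 and 0.0276 CPM in Sirt5-/- replicates 1 to 3, against 21.7, 20.7 and 12.4 CPM in Sirt5+/+ replicates 1 to 3. The Sirt5-/- values of Nlrp12 stand for 1, 15 and 1 counts, so replicates 1 and 3 are under the floor of 3 counts and its likeness rests in part on them. Cyp2a4, a steroid hydroxylase gene, followed at 1.84, with means of 7.41 ± 4.98 CPM in Sirt5-/- and 263 ± 86.1 CPM in Sirt5+/+ (SD, n = 3 each). Sirt5 itself, which the Sirt5-/- livers lack by design, came next at 2.22. Ugt2b38, a glucuronosyltransferase gene, was at 2.27, with means of 3.61 ± 2.99 CPM in Sirt5-/- and 48.6 ± 14.0 CPM in Sirt5+/+ (SD, n = 3 each). The fatty acid hydroxylase gene Cyp4a14 was at 2.37, with means of 0.786 ± 0.502 CPM in Sirt5-/- and 11.9 ± 2.54 CPM in Sirt5+/+. Cyp2a4 and Ugt2b38 are uncertain, since 58.9% and 52.9% of their 31-base words occur in other genes.

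The rest of the calcium and calmodulin pathway did not move as one. Of 99 listed genes besides the 9 kinase genes, 86 were tested, 20 passed as higher in Sirt5-/-, 7 passed as lower and 59 did not pass (edgeR quasi-likelihood test, adjusted p under 0.05). The 31.4% that passed stand beside 34.5% of all genes (17.4% higher and 17.1% lower). The median log2 difference was 0.10 against -0.08 over all genes. The count of 27 was 17 without Sirt5-/- replicate 1, 13 without Sirt5-/- replicate 2 or 3 and 42 without Sirt5+/+ replicate 3. None of the 27 changed sign under the other scalings tried, and 16 still passed with library totals.

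Among calmodulins and calmodulin-binding proteins, 3 of 11 rose and 1 fell (median log2 difference 0.12). Marcks, a membrane protein that binds calmodulin, rose to 142 ± 28.9 CPM in Sirt5-/-, against 21.5 ± 9.65 CPM in Sirt5+/+ (SD, n = 3 each; adjusted p = 0.00222, edgeR). The scaffold gene Iqgap1 rose, with a log2 difference of 1.87 ± 0.27 (SE; edgeR, adjusted p = 0.00242). Its liver paralog Iqgap2 fell by 1.92 ± 0.32 (SE; adjusted p = 0.00351, edgeR, and 0.163 with library totals).

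Of 15 genes listed as other calmodulin-regulated kinases 1 rose, the inositol trisphosphate kinase gene Itpkb, and 14 did not pass (median -0.17). The list also holds the CaMKII inhibitor gene Camk2n2, which does not encode a kinase. Itpkb averaged 16.9 ± 2.67 CPM in Sirt5-/- and 7.15 ± 2.16 CPM in Sirt5+/+ (SD, n = 3 each; edgeR, adjusted p = 0.0129). Its adjusted p was 0.0550 without Sirt5-/- replicate 2, 0.0661 without Sirt5-/- replicate 3 and 0.0609 with library totals. The calcineurin list holds this calcium-activated phosphatase, its regulators, NFAT factors and the CaM kinase phosphatase gene Ppm1f. In that list 3 of 14 rose and 1 fell (median 0.52). Nfatc2, a transcription factor that calcineurin sends to the nucleus, rose to 10.7 ± 1.10 CPM in Sirt5-/-, against 1.54 ± 0.560 CPM in Sirt5+/+ (adjusted p = 0.00180, edgeR). The calcineurin regulator gene Rcan2 rose by 1.84 ± 0.37 (SE; adjusted p = 0.00715, edgeR). Rcan3 rose by 1.41 ± 0.40 (SE; adjusted p = 0.0264, edgeR), but its adjusted p was between 0.0615 and 0.145 when Sirt5-/- replicate 2 or 3, or Sirt5+/+ replicate 1 or 2, was left out. The gene that fell was Ppm1f, a phosphatase that acts on CaM kinases, with 5.96 ± 0.972 CPM in Sirt5-/- and 13.3 ± 6.31 CPM in Sirt5+/+ (adjusted p = 0.0492, edgeR). Ppm1f was lost with library totals and with upper-quartile factors.

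Of 26 genes for calcium release, entry and pumps, 6 rose and 2 fell (median -0.06). Orai2, a store-operated calcium channel subunit, rose to 7.52 ± 0.975 CPM in Sirt5-/-, against 1.13 ± 0.255 CPM in Sirt5+/+ (SD, n = 3 each; edgeR, adjusted p = 0.00180). P2rx7, an ATP-gated channel of myeloid cells, rose by 1.93 ± 0.27 (SE; adjusted p = 0.00231, edgeR), and Mcub, a subunit that restrains the mitochondrial calcium uniporter, rose by 2.51 ± 0.39 (SE; adjusted p = 0.00295, edgeR). The pair that fell were the release channel gene Itpr1 and the mitochondrial exchanger gene Slc8b1, at log2 differences of -1.09 ± 0.33 and -1.37 ± 0.35 (SE). Both lost their calls with library totals, and Itpr1 also with upper-quartile factors.

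CaM kinase substrates and AMPK subunits were the list with most calls, 7 of 20 higher and 3 lower (median 0.08). The 50% that passed stand beside 34.5% of all tested genes. Mef2c, a transcription factor freed when CaM kinases act on class II histone deacetylases, rose to 27.2 ± 4.92 CPM in Sirt5-/-, against 4.84 ± 2.20 CPM in Sirt5+/+ (SD, n = 3 each; edgeR, adjusted p = 0.00287). Hdac7, one of those deacetylases, rose by 1.44 ± 0.25 (SE; adjusted p = 0.00412, edgeR). Prkaa2, the AMPK catalytic subunit alpha 2 and a target of CaMKK2, fell to 6.20 ± 1.499 CPM in Sirt5-/-, against 30.1 ± 13.9 CPM in Sirt5+/+ (adjusted p = 0.00392, edgeR). Foxo1, a factor of gluconeogenesis that CaMKII acts on in mouse hepatocytes, fell by 1.12 ± 0.32 (SE; adjusted p = 0.0264, edgeR), and lost its call with library totals. Ppm1f, Itpr1, Slc8b1 and Foxo1 were named after their values were seen. The general macrophage genes and the fibroblast marker sum given above moved with the genes that rose, and those of hepatocytes with the genes that fell, and their part in these results was not tested.

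**Figure D5:**
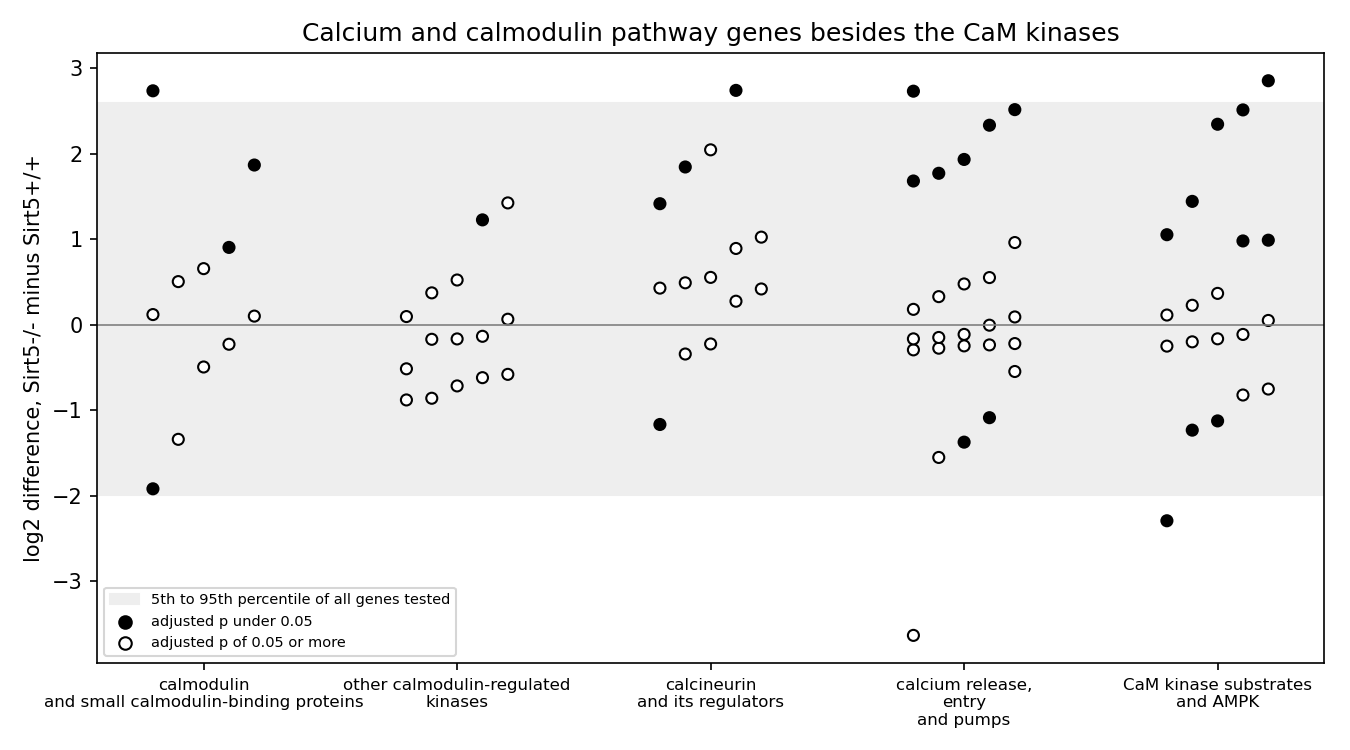
Log2 difference, Sirt5-/- minus Sirt5+/+, of each tested gene in the 5 calcium and calmodulin lists, with filled symbols for an adjusted p under 0.05 (edgeR) and a grey band from the 5th to the 95th percentile of all 14799 genes. In each list most genes lie inside the band, which runs from -1.99 to 2.59.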

How the data were processed

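Bulk RNA of 3 Sirt5-/- and 3 Sirt5+/+ livers was analysed. HISAT2 2.1.0, RSEM 1.3.1 and DESeq2 1.24.0 are named in the submitters' processing notes, without roles; the genome build and options are not given in the sources used here. The expected counts (estimated reads per gene) and TPM were used as deposited by the authors. The authors' deposited log2 fold changes were used only to say how the members were chosen, and the deposited p-values only to rank them. Gene IDs and names of 55450 of 55536 entries match GENCODE M21, whose GRCm38 coordinates are given. Promoter sequences are RefSeq's (GRCm38.p6), with 5 of the 9 genes in that table.

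Counts were rounded, filtered with filterByExpr (minimum count 10, minimum total 15), scaled by TMM (factors 0.396 to 1.68) and tested with the quasi-likelihood F test of edgeR 4.0.16, two-sided, with genotype as the only term. Adjustment over the 14799 genes was by Benjamini-Hochberg. The SE was taken as the log2 difference over the root of F. The steps were tested on simulated data. Effective length is count over TPM, scaled on single-transcript genes (at least 200 counts, over 800 bases), of which 68.9 to 77.6% lay within 1% of a line. Floors cover counting error only.

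The members and lists were chosen with earlier results of these data known. Named genes were the members, Sirt5, up to 3 called genes of smallest p per pathway list and the 5 genes most like Camk2b; Ykt6, Nudcd3 and Ogg1 were added for their position. Alternatives were other scalings, filters and tools (DESeq2 1.42.0, limma 3.58.1), the replicate block, removal of mitochondrial genes and leaving out libraries; counts per kb were added after seeing the data. Some results are not reported here.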

Additional observations from a re-analysis of the deposited data

How the results depend on the processing

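Camk2b was lower in Sirt5-/- under all 18 alternatives tried, with log2 differences from -8.76 to -6.44; it moved by more than the spread between replicates with library totals (-7.67), with log2(TPM + 1) (-6.44) and without Sirt5+/+ replicate 3 (-7.96, in a range of -8.76 to -7.96 without single libraries). The difference in its share of CaMKII TPM, -93.5 percentage points, was -92.0 with expected counts and -91.3 with counts per kb of the longest transcript, and the log2 difference of the summed CaMKII TPM, -3.63, was -4.33 and -4.54. Without single libraries these ran from -94.4 to -92.7 points and from -3.95 to -3.29. Camk1d, at -1.02, changed sign with library totals (0.30), without Sirt5+/+ replicate 3 (0.61, in a range of -1.46 to 0.61 without single libraries) and without the library of each genotype richest in mitochondrial reads (0.72). Nudcd3, which did not pass, was at 0.25 with library totals. The cause of these changes was not tested, beyond the Camk1d level of Sirt5+/+ replicate 3. The 5100 changed genes were 2763 with library totals, 88.2% of them higher against 50.5%, which moved the median of all genes to 0.60, and upper-quartile factors gave 60.3% higher; the range without single libraries was 2531 to 7647. The 27 pathway genes ranged from 13 to 42 without single libraries. Of 13 named pathway genes, 10 passed under every alternative, and Iqgap2, Itpkb and Rcan3 did not.

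Replicate numbers did not pair the samples: deviations of same-numbered libraries correlated at -0.19, 0.11 and -0.20. With the replicate block 3643 genes and 19 pathway genes passed, Camk2b was at -8.42, and Rcan3 had an adjusted p of 0.0711. The 3 libraries per genotype, and the low counts of Camk2a and Camk4, limit what can be detected.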
